A study of Mus musculus with 12 samples.

Results

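Leptin (Lep) and 7 other transcripts known from adipocytes, Adipoq, Retn, Cfd, Rbp4, Plin1, Fabp4 and Nnat, were followed in gastrocnemius muscle (Gas), gonadal white adipose tissue (WAT) and liver of mice given corticosterone (CORT). The 8 genes were chosen from earlier results of these same data and were then found by symbol. The values behind that choice were the levels in muscle and fat, where Lep was among the genes with the steepest CORT rise in Gas, so every difference below describes the libraries and none was tested. They make up 8 of 22273 genes listed for Gas and 8 of 22252 listed for WAT and for liver.

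Leptin is a hormone that adipocytes release in relation to fat stores and that lowers food intake through its receptor in the brain. Adiponectin (Adipoq), resistin (Retn) and adipsin (Cfd, the complement factor D protease) are released almost wholly by adipocytes, while retinol binding protein (Rbp4) comes from liver and fat. Perilipin (Plin1) coats the lipid droplet, Fabp4 carries fatty acids inside adipocytes and capillary endothelium, and Nnat (neuronatin) is an imprinted gene of the endoplasmic reticulum found in fat and brain. Glucocorticoids such as CORT act through the glucocorticoid receptor (GR), which the gene Nr3c1 encodes.

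All mice were C57BL/6J males that carried Nr3c1 with a floxed exon 3. GRf/f mice had no further change, and GRmKO mice also carried an Acta1-Cre transgene, which removes the receptor in muscle fibres only, so their fat, liver and endothelium kept it. From 8 weeks of age the mice drank 1% ethanol with 100 µg/mL CORT, or 1% ethanol alone as vehicle, for 4 weeks. Each of the 12 libraries was made from the RNA of 3 mice pooled together, giving 1 library for each tissue, genotype and treatment, so there was no replicate, no SD and no p-value, and the 95% intervals given below cover counting error only. Levels are given as CPM, the deposited expected count divided by the library total and multiplied by 1000000.

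Library totals lay between 19394572 and 20940660 expected counts, and 3 counts, taken as the floor, came to 0.143 to 0.155 CPM. In WAT all 14 listed adipocyte markers, 6 of them among the 8 genes described here, were above the floor in every library, with a summed level of 49370 to 70531 CPM, and the listed epididymis genes summed to at most 1.60 CPM. In Gas the 8 listed muscle fibre genes summed to 89000 to 121632 CPM. The deletion takes out 1 exon of Nr3c1, so a count over the whole transcript does not check it and is not used here.

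Promoter letters are shown for the 3 genes with the widest moves, taken from RefSeq on build GRCm38.p6, where 7 of the 8 genes had an entry. Each run covers the 250 bases before the start site, on the plus strand, for Lep at chr6:29059971-29060220, for Cfd at chr10:79890603-79890852 and for Nnat at chr2:157559828-157560077. Capitals mark matches to 3 motifs that were searched on both strands of the whole entry, which runs 50 bases past the start site, the TATA box TATAAA, the C/EBP site TTGCGCAA and the glucocorticoid response element half-site AGAACA.
Lep: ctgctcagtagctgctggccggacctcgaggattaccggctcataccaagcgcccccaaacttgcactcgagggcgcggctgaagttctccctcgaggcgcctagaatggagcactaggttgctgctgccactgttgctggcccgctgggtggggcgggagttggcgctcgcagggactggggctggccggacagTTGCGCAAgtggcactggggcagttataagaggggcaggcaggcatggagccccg
Cfd: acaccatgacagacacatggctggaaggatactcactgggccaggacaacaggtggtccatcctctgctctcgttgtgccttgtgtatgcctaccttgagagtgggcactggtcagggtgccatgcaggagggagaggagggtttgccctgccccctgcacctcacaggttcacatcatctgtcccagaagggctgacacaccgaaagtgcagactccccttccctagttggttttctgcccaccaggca
Nnat: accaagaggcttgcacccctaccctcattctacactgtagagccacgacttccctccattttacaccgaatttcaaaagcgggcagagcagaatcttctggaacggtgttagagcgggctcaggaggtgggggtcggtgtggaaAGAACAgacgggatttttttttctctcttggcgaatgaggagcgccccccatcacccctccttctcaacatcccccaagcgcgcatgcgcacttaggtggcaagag
The window of Lep held the C/EBP letters at bases -55 to -48 from the start site, a match found in 0.183% of the 32851 mouse promoter windows of 300 bases. The window of Nnat held the half-site at -106 to -101, letters that occur in 19.0% of windows. TATAAA, present in 13.6% of windows, was found at -28 to -23 in 1 of the entries for Rbp4. None of these letters was in the windows of Cfd, Adipoq, Retn or Plin1, and a match or its lack is only a description of the letters.

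In muscle, Lep rose with CORT in both genotypes, and it was the gene that rose most steeply among the 8. It stood at 2.01 CPM in the GRf/f vehicle library, 93.6 CPM in GRf/f with CORT, 3.35 CPM in GRmKO vehicle and 31.4 CPM in GRmKO with CORT. Both CORT libraries were far above both vehicle libraries, and the receptor-deleted muscle with CORT held the lower level of the pair. The Lep row (transcript ENSMUST00000069789, 3 exons, plus strand of chromosome 6 from 29060220 to 29073877 in mm10) rested on 39.9 expected counts in the GRf/f vehicle library and 1816 in the CORT library.

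In WAT, where Lep is normally made, the level was 722 CPM in GRf/f vehicle, 5587 CPM in GRf/f with CORT, 1290 CPM in GRmKO vehicle and 3196 CPM in GRmKO with CORT. The order of the groups was the same as in muscle, with CORT above vehicle, GRmKO above GRf/f under vehicle and GRmKO below GRf/f under CORT. In liver Lep had at most 2.99 expected counts in any library, at or under the floor.

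**Figure D1:**
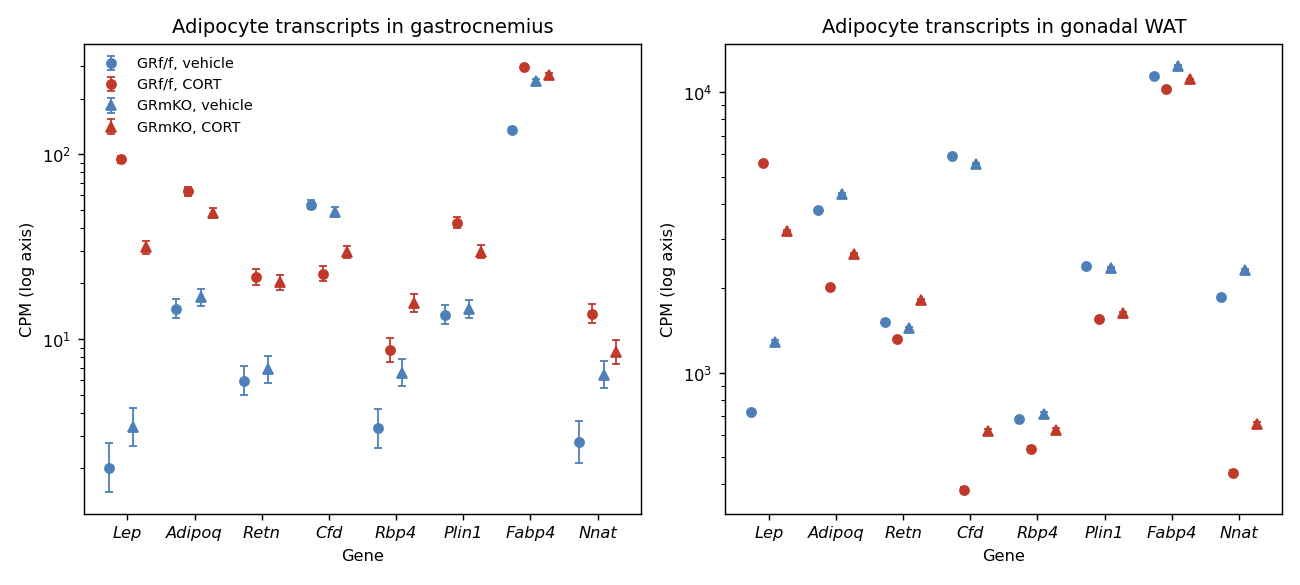
Level of each of the 8 genes in CPM (log axis) in gastrocnemius (left) and gonadal WAT (right). Circles are GRf/f and triangles GRmKO, blue is vehicle and red is CORT, each point is 1 library of 3 pooled mice, and bars are 95% Wilson counting intervals. Red points lie above blue ones for Lep in both tissues, for Cfd they lie below, and for Nnat they lie above in muscle and below in fat.

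The log2 change with CORT, computed on CPM + 0.5, was called when it reached 1 in size (2-fold), among the genes that every library of the tissue held above 0. For Lep in GRf/f muscle it was 5.23, the 2nd highest of 13543 genes, with a 95% counting interval of 5.09 to 6.03 for the ratio without the added 0.5. In GRmKO muscle it was 3.05 (2.87 to 3.62), the 4th highest. In WAT the change was 2.95 (2.93 to 2.98) in GRf/f, 42nd of 14218 genes, and 1.31 (1.29 to 1.33) in GRmKO, 254th. Lep thus rose with CORT in each of the 4 pairs of libraries, by a smaller factor in GRmKO than in GRf/f in both tissues. The difference between the genotypes' log2 ratios was -2.32 (-2.90 to -1.74) in Gas and -1.64 (-1.67 to -1.61) in WAT. With 1 pool a group this difference was not tested against the variation between mice.

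Whether more fat cells in the muscle or more RNA per cell lay behind a level cannot be told apart in bulk tissue. The listed adipocyte markers in Gas were above the floor in 14 of 14 cases in 3 libraries and in 13 in the GRmKO vehicle library, where Cidec was listed at 0. Their summed level of 3779 CPM in GRf/f vehicle, 3290 in GRf/f with CORT, 5938 in GRmKO vehicle and 5702 in GRmKO with CORT was mostly Car3, a carbonic anhydrase that muscle also makes. Without Car3, a choice made after seeing the data, the sums were 1060, 1663, 1140 and 1365 CPM in that order, which include 6 of the 8 genes described here. The 7 markers that are neither Car3 nor among the 8 summed to 835, 1125, 800 and 938 CPM. Most of each of these sums was Gpd1, which differed little between the libraries, at 641, 655, 681 and 669 CPM. Among the markers outside the 8 genes, Acvr1c, a receptor of fat cells, measured 1.36, 4.16, 1.00 and 3.59 CPM in that order. Plin4 measured 145, 332, 86.5 and 163 CPM, Lipe 29.2, 55.7, 26.6 and 49.1 CPM and Cidec 12.5, 72.8, 0 and 49.3 CPM. These and Acvr1c were higher with CORT in both genotypes. Adrb3 was lower in both, at 1.27, 0.560, 0.655 and 0.473 CPM. Pparg, the adipocyte master regulator, measured 3.64, 4.51, 3.89 and 3.83 CPM. The part of fat cell content in the muscle values was not tested.

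Among the other secreted products, adiponectin, which raises insulin sensitivity, rose in muscle and was lower in fat without passing the rule there. Adipoq in Gas measured 14.6 CPM in GRf/f vehicle, 63.0 CPM in GRf/f with CORT, 16.8 CPM in GRmKO vehicle and 48.2 CPM in GRmKO with CORT. In WAT the levels were 3792, 2016, 4341 and 2648 CPM in the same order. The muscle libraries were thus higher and the fat libraries lower with CORT in both genotypes. The log2 change in Gas was 2.07 in GRf/f and 1.49 in GRmKO, both past 2-fold, and in WAT it was -0.91 and -0.71, neither past it.

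Resistin, which is linked to insulin resistance in mice, showed a change in muscle alone that passed the rule. Retn levels in Gas were 5.93 CPM in GRf/f vehicle, 21.6 CPM in GRf/f with CORT, 6.90 CPM in GRmKO vehicle and 20.3 CPM in GRmKO with CORT. In WAT they were 1521, 1317, 1440 and 1811 CPM in that order. The 2 CORT libraries of muscle were alike and stood 3.65-fold and 2.94-fold above the vehicle ones in GRf/f and GRmKO, with log2 changes of 1.78 and 1.49, against -0.21 and 0.33 in fat, where the signs differed between genotypes.

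Adipsin, the protease that starts the alternative complement pathway, fell with CORT more steeply than nearly all other genes of fat. Cfd in WAT measured 5933 CPM in GRf/f vehicle, 383 CPM in GRf/f with CORT, 5552 CPM in GRmKO vehicle and 620 CPM in GRmKO with CORT. Vehicle libraries of both genotypes were alike, and with CORT the level was 15.5-fold lower in GRf/f and 8.95-fold lower in GRmKO, changes of -3.95 and -3.16 on the log2 scale. Each was the 6th lowest of 14218 genes. In Gas, Cfd was the only gene of the 8 to fall, from 53.4 to 22.6 CPM in GRf/f (log2 change -1.22), and in GRmKO it measured 48.8 CPM with vehicle and 29.6 CPM with CORT (-0.71, not past the rule).

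Retinol binding protein carries vitamin A in blood. Rbp4 in Gas measured 3.29 CPM in GRf/f vehicle, 8.74 CPM in GRf/f with CORT, 6.59 CPM in GRmKO vehicle and 15.7 CPM in GRmKO with CORT. In WAT it measured 684, 536, 713 and 627 CPM, and in liver 2541, 3064, 2886 and 3318 CPM. Muscle levels were higher with CORT by 1.29 on the log2 scale in GRf/f and 1.20 in GRmKO, past the rule in both, although NOISeq did not call it in GRf/f, while the changes in fat were -0.35 and -0.19. Alb (albumin), a defining hepatocyte transcript, measured 4.13 and 7.47 CPM in the GRf/f muscle libraries but 56.4 and 198 CPM in the GRmKO ones, vehicle before CORT. These levels were 0.00828%, 0.00897%, 0.0792% and 0.178% of Alb in the matching liver libraries, while Rbp4 in muscle was 0.129%, 0.285%, 0.228% and 0.474% of its liver level. All 8 listed hepatocyte markers were above the floor in the GRmKO muscle libraries and 6 in the GRf/f ones, with sums of 45.2, 112, 129 and 347 CPM in the order used above, Apoa2 being at 0 in both GRf/f libraries and Apoc3 in GRf/f vehicle. Cyp2e1, which WAT also held at 4877 to 5824 CPM, made up 39.0 and 103 CPM of the GRf/f sums. Their part in the Rbp4 result was not tested.

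Plin1, which guards the lipid droplet against lipases, followed Adipoq. Its levels in Gas were 13.6 CPM in GRf/f vehicle, 42.5 CPM in GRf/f with CORT, 14.5 CPM in GRmKO vehicle and 29.7 CPM in GRmKO with CORT, and in WAT 2402, 1559, 2356 and 1626 CPM. Vehicle libraries of the 2 genotypes were close in each tissue, and CORT went with more Plin1 in muscle and less in fat. The log2 change in Gas was 1.61 in GRf/f and 1.01 in GRmKO, the latter only just past the rule and 0.98 with 1 CPM added in place of 0.5 and not called by NOISeq, and in WAT it was -0.62 and -0.53.

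Fabp4 was the most abundant of the 8 in every muscle and fat library per kilobase of transcript. In Gas it measured 136 CPM in GRf/f vehicle, 295 CPM in GRf/f with CORT, 249 CPM in GRmKO vehicle and 267 CPM in GRmKO with CORT. In WAT it measured 11458, 10268, 12411 and 11102 CPM. The GRf/f vehicle library of muscle stood below the other 3, so that the log2 change with CORT was 1.11 in GRf/f and 0.10 in GRmKO, while in fat it was -0.16 in both. Endothelial cells also make Fabp4. The 6 listed endothelial markers, all above the floor, summed to 347, 299, 377 and 257 CPM in Gas in the same order. The sums were lower with CORT in both genotypes, but the markers were split. In GRf/f, Pecam1 (42.3 to 51.2 CPM), Kdr (48.5 to 61.7) and Egfl7 (16.6 to 21.5) were higher with CORT. Cdh5 (152 to 108 CPM), Tie1 (53.5 to 32.5) and Vwf (34.2 to 24.0) were lower. In GRmKO only Kdr was higher (51.9 to 53.3 CPM). The part of endothelial cells in the Fabp4 levels was not tested.

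Nnat changed in opposite directions in muscle and fat of GRf/f mice. In Gas it measured 2.77 CPM in GRf/f vehicle, 13.8 CPM in GRf/f with CORT, 6.43 CPM in GRmKO vehicle and 8.54 CPM in GRmKO with CORT. In WAT the levels were 1855, 440, 2330 and 657 CPM. CORT libraries were above vehicle in muscle and below it in fat. The log2 change was 2.12 in GRf/f muscle and 0.38 in GRmKO muscle, against -2.08 and -1.83 in fat. Blcap, the imprinted gene whose intron holds Nnat, had log2 changes of -0.42 and -0.02 in Gas and of -0.91 and -0.63 in WAT, none past the rule.

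**Figure D2:**
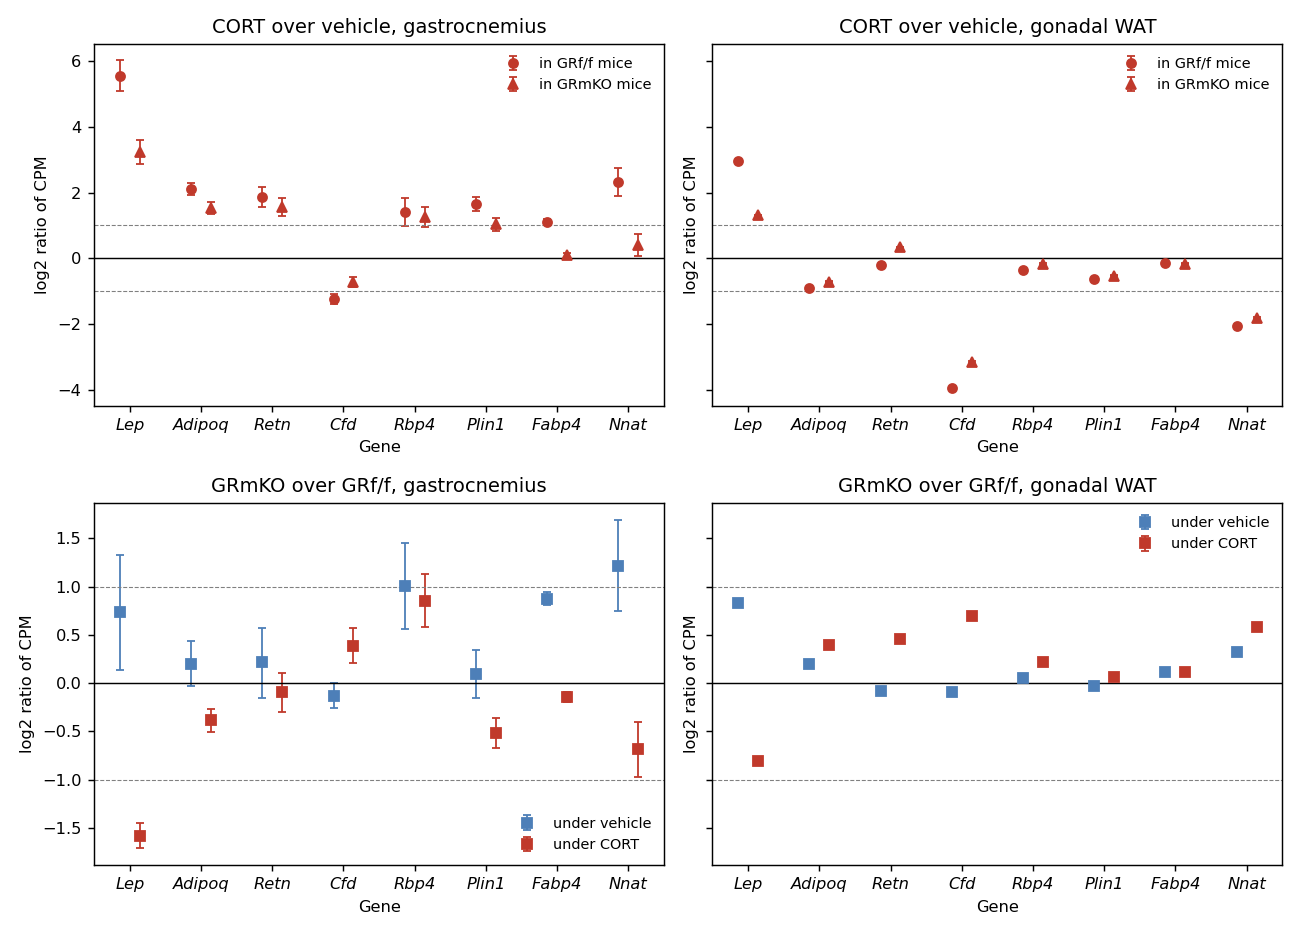
Log2 ratio of CPM, without an added constant, for CORT over vehicle (top) and GRmKO over GRf/f (bottom) in gastrocnemius (left) and gonadal WAT (right). Bars are exact 95% counting intervals of the ratio of 2 libraries and dashed lines mark 2-fold. Lep is above 2-fold in all 4 CORT ratios, Cfd is below zero in all 4, and most other genes lie above zero in muscle and below it in fat.

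Counted together, 7 of the 8 genes rose and 1 fell in Gas of GRf/f mice with CORT, where 3.26% of 13543 genes rose and 4.72% fell. The median log2 change of the 8 was 1.70, beside -0.08 over all genes tested. In GRmKO muscle 5 rose and 0 fell, beside 1.51% and 5.02% of all genes, with medians of 1.10 and -0.10. In WAT of GRf/f mice 1 rose and 2 fell, beside 5.49% and 8.07% of 14218 genes, and the median was -0.49 against -0.07. GRmKO fat gave the same counts of 1 and 2, beside 3.47% and 5.63%, with medians of -0.36 and -0.12. The choice of the 8 used these comparisons, so the counts describe them only.

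The genotypes were then compared within each treatment. In vehicle muscle 1 gene, Nnat, was higher in GRmKO (log2 difference 1.08) and 0 were lower, beside 4.59% and 3.18% of all genes. This call was lost with 1 CPM added in place of 0.5 (0.98) and was not made by NOISeq. Values for Rbp4 (0.90), Fabp4 (0.87) and Lep (0.62) leaned the same way without passing the rule, and Adipoq, Retn, Cfd and Plin1 lay between -0.13 and 0.20. In CORT muscle Lep was lower in GRmKO (log2 difference -1.56), with an interval of -1.71 to -1.45 for the ratio, which left 0.335 of the GRf/f level. It was the only call, against 4.40% of genes higher and 5.31% lower. Nnat (-0.66), Plin1 (-0.51) and Adipoq (-0.38) were nearer to zero, and Rbp4 had the opposite sign (0.81).

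In WAT, whose cells keep the receptor in GRmKO mice, 0 of the 8 genes passed the rule between genotypes under vehicle, beside 1.07% of genes higher and 1.15% lower, and 0 under CORT, beside 1.43% and 1.19%. Lep had the widest gap in each case, with a log2 difference of 0.84 under vehicle and -0.81 under CORT, and so stood nearest to the rule with opposite signs. Under CORT, Cfd (0.70), Nnat (0.58), Retn (0.46) and Adipoq (0.39) were all on the higher side in GRmKO. NOISeq, the method named by the study's methods, called 0 of the 8 in each of these WAT comparisons as well.

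Set against another transcript of the same library, Lep gained on each gene tried, a ratio in which depth and scaling cancel. Lep counts in Gas were 13.7% of Adipoq counts in GRf/f vehicle, 149% in GRf/f with CORT, 19.9% in GRmKO vehicle and 65.1% in GRmKO with CORT. In WAT the same ratio was 19.1%, 277%, 29.7% and 121%. The order of the 4 groups was the same in muscle and fat, and fat had the higher ratio in each group. With CORT the ratio grew 10.8-fold (95% counting interval by the delta method 7.71 to 15.2) in Gas and 14.5-fold (14.2 to 14.9) in WAT of GRf/f mice, and 3.27-fold (2.47 to 4.32) and 4.06-fold (3.99 to 4.14) in GRmKO. The counting intervals of the 2 tissues overlap in each genotype. Against Cfd the growth was 110-fold (78.7 to 153) in Gas and 120-fold (116 to 123) in WAT of GRf/f mice, where the intervals overlap, and 15.4-fold (11.7 to 20.2) and 22.2-fold (21.7 to 22.7) in GRmKO, where they do not. Against Fabp4 the tissues also stood apart, with 21.5-fold in Gas and 8.63-fold in WAT of GRf/f mice and intervals of 15.6 to 29.5 and 8.48 to 8.79.

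**Figure D3:**
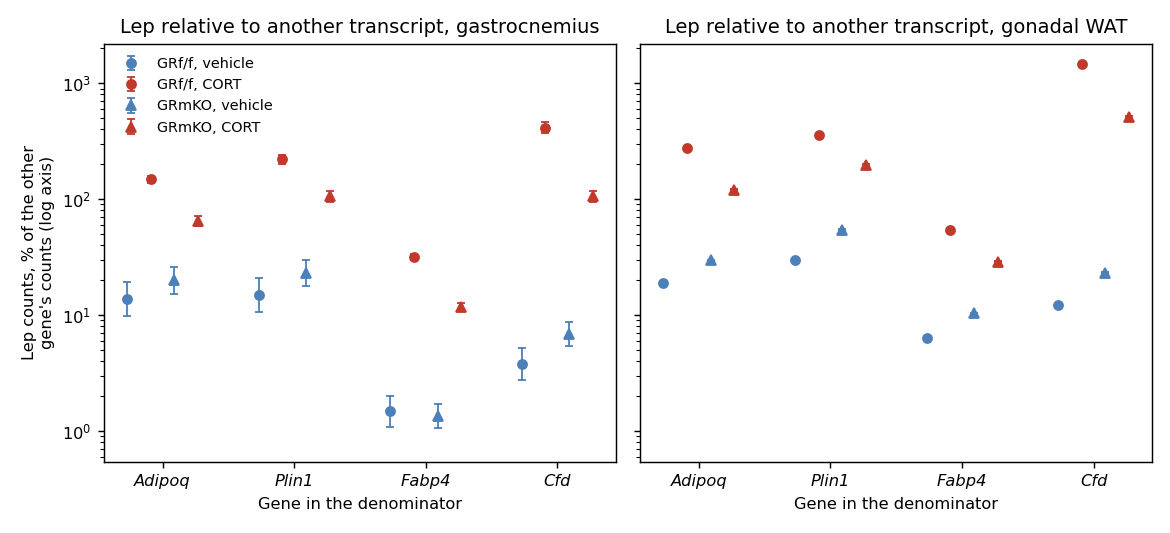
Lep counts as a percentage of the counts of Adipoq, Plin1, Fabp4 or Cfd in the same library (log axis), in gastrocnemius (left) and gonadal WAT (right), with symbols and colours as in the plot of levels and bars for 95% counting intervals. The red points lie above the blue points of the same genotype for all 4 genes in both tissues, by the widest margin against Cfd.

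Between genes, levels were compared per kilobase of the transcript each row was labelled with. The deposited rows carry 1 transcript name per gene, the same in Gas and WAT for 19838 of 22249 shared symbols. Whether their counts are of that transcript or of the whole gene is not settled, so this order has that limit. The same limit holds for the fold changes and for the marker sums, in which Cidec and Itgam were listed at 0 in some libraries. Lep was the lowest of the 8 in vehicle WAT of both genotypes, at 222 and 396 CPM per kilobase in GRf/f and GRmKO. With CORT it was the 2nd highest in GRf/f (1714 CPM per kilobase, after Fabp4 at 11459 and before Adipoq at 1560) and the 4th in GRmKO (981). In Gas it was likewise the lowest in both vehicle libraries, the 3rd highest in GRf/f with CORT (28.7 CPM per kilobase) and the 7th in GRmKO with CORT (9.62).

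The level in muscle as a share of the level in fat, for which each gene had the same transcript in both tissues, was next compared across the 4 groups. For Lep, Gas held 0.278% of the WAT level in GRf/f vehicle, 1.68% in GRf/f with CORT, 0.260% in GRmKO vehicle and 0.981% in GRmKO with CORT. The genotypes were alike under vehicle and GRf/f was the higher under CORT. Over the 8 genes the share ran from 0.150% (Nnat) to 1.19% (Fabp4) in GRf/f vehicle, with a median of 0.435%, and from 1.63% (Rbp4) to 5.91% (Cfd) with CORT, with a median of 2.80%. In GRmKO it ran from 0.260% to 2.01% under vehicle (median 0.547%) and from 0.981% to 4.78% under CORT (median 1.82%).

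The share was higher with CORT for 8 of 8 genes in both genotypes. A fall in fat by itself raises the share, and the fat level of Cfd and Nnat fell while that of Lep rose. Cfd was lower with CORT in muscle too, so its share grew only because it fell further in fat. The growth in GRf/f ran from 2.42-fold for Fabp4 to 20.9-fold for Nnat, with 6.02-fold for Lep, 6.57-fold for Cfd and 8.10-fold for Adipoq between them. In GRmKO it ran from 1.20-fold for Fabp4 to 5.44-fold for Cfd, with 3.77-fold for Lep and 4.69-fold for Adipoq. A wider and less fat-enriched set of 116 genes, chosen after the shares were seen by a mean of at least 100 CPM in WAT and at most 5% of that in Gas, with more than 3 counts in each Gas library and the same transcript in both tissues, includes the 8 and had a median share of 1.39% in GRf/f vehicle and 3.45% with CORT. The share was higher with CORT for 89.7% of them in GRf/f, with a median growth of 2.53-fold, and for 80.2% in GRmKO, with a median of 1.51-fold.

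**Figure D4:**
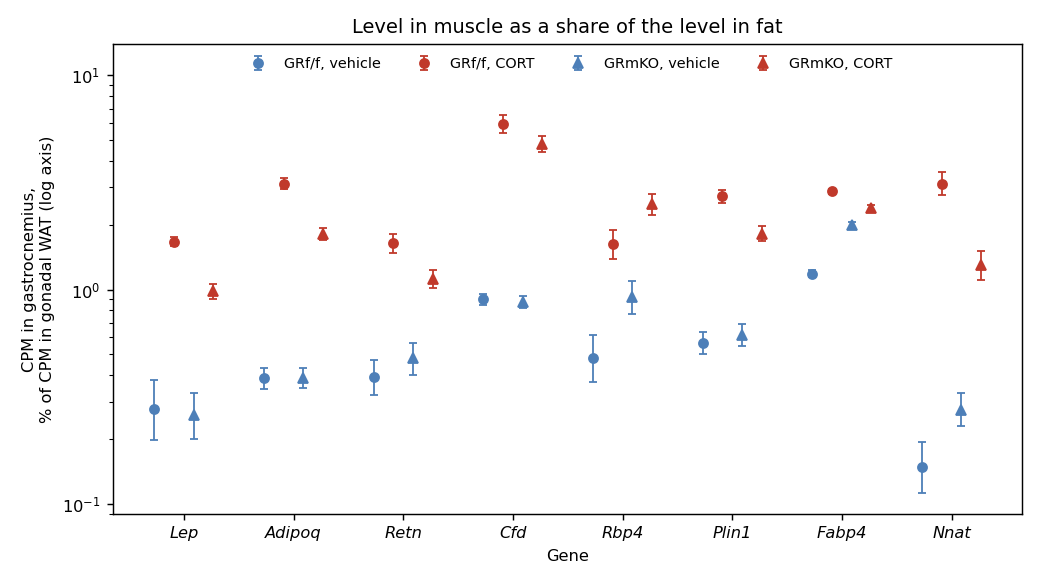
CPM in gastrocnemius as a percentage of CPM in gonadal WAT of the same genotype and treatment (log axis) for the 8 genes, with symbols and colours as in the plot of levels and bars for exact 95% counting intervals. Red points lie above the blue ones of the same genotype for 8 of 8 genes, and Lep goes from 0.278% to 1.68% in GRf/f and from 0.260% to 0.981% in GRmKO.

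Other cell types moved with CORT beside these genes. In WAT the 7 listed macrophage markers summed to 713 CPM in GRf/f vehicle, 1825 with CORT, 955 in GRmKO vehicle and 1744 with CORT, all above the floor but Itgam in GRf/f vehicle, which was listed at 0. The 6 endothelial markers of WAT summed to 672, 246, 605 and 331 CPM in that order. The 8 listed progenitor and fibroblast markers of Gas, each above the floor, summed to 1579, 555, 2368 and 799 CPM. So macrophage transcripts were higher in fat, and endothelial transcripts of fat and fibroblast transcripts of muscle lower, in both CORT libraries. The 7 macrophage markers of Gas summed to 110, 118, 399 and 148 CPM in the same order, with the GRmKO vehicle library, in which Nnat, Rbp4 and Fabp4 exceeded their GRf/f vehicle levels, the highest, and Itgam listed at 0 in GRf/f vehicle and GRmKO with CORT. The 5 listed red blood cell markers summed to 926 CPM in GRmKO vehicle and 1709 CPM in GRmKO with CORT in Gas, both above the GRf/f libraries, and to 2993, 1474, 3092 and 3864 CPM in WAT. Their part in the levels of the 8 genes was not tested.

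In liver, Adipoq, Retn, Plin1 and Nnat had at most 5.58 expected counts in any library, and Cfd had 12.3 in GRf/f vehicle and at most 5.02 in the other 3. The liver rows of Cfd and Nnat were labelled with another transcript than those of muscle and fat. Fabp4 measured 6.27 CPM in GRf/f vehicle, 7.88 CPM in GRf/f with CORT, 6.36 CPM in GRmKO vehicle and 9.28 CPM in GRmKO with CORT. Liver thus held Rbp4 in amount, a little Fabp4 and the rest at or close to the floor.

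Among 20 listed adipokines and other secreted factors, 19 could be tested, and 14 of these were outside the 8. In Gas of GRf/f mice 1 of the 14 rose with CORT and 1 fell, close to the 3.26% and 4.72% of all genes. Angptl4, an inhibitor of lipoprotein lipase, went from 2.06 to 17.3 CPM in GRf/f and from 1.64 to 16.1 CPM in GRmKO, log2 changes of 2.80 and 2.95. Apln (apelin) went from 4.37 to 0.617 CPM and from 4.30 to 0.590 CPM, changes of -2.13 and -2.14. In WAT 3 of the 14 rose and 2 fell in GRf/f, where 5.49% and 8.07% of all genes did, among them the monocyte attractant Ccl2 (4.66 to 33.2 CPM, log2 change 2.71) and Nrg4 (98.5 to 22.7 CPM, -2.09). The whole list had a median of 0.36 in Gas and -0.30 in WAT of GRf/f mice.

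Of the lipid droplet, uptake and lipolysis list, 17 genes outside the 8 were tested in Gas, where 5 rose and 0 fell in GRf/f with CORT, beside 3.26% and 4.72% of all genes. In GRmKO muscle 0 of the 17 rose and 0 fell, near the 1.51% and 5.02% of all genes. Cidec of this list was not tested because it was listed at 0 in GRmKO vehicle. With CORT it went from 12.5 to 72.8 CPM in GRf/f and from 0 to 49.3 CPM in GRmKO. G0s2, an inhibitor of the lipase Pnpla2, measured 9.41 CPM in GRf/f vehicle, 65.4 CPM in GRf/f with CORT, 31.9 CPM in GRmKO vehicle and 32.8 CPM in GRmKO with CORT. Its log2 change was thus 2.73 in GRf/f and 0.04 in GRmKO, and the 2 GRmKO libraries lay between the GRf/f ones. Agpat2, an enzyme of triglyceride synthesis, and Plin4, another droplet coat protein, rose by 1.24 and 1.19 in GRf/f. In GRmKO their log2 changes were 0.75 and 0.91, under the rule. Lipe changed by 0.92 in GRf/f and 0.87 in GRmKO, also under it. On the lower side in GRmKO muscle were Gpihbp1 (-0.84) and Fabp5 (-0.74). In WAT 0 of 18 rose and 2 fell in GRf/f, beside 5.49% and 8.07% of all genes, the lipase anchor Gpihbp1 (-1.89) and Cidea (-1.72), and the median of the list was -0.23, beside 0.47 in Gas.

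Of the adipocyte transcription factors few passed the rule. In Gas of GRf/f mice 0 of 12 rose with CORT and 2 fell, beside 3.26% and 4.72% of all genes, the 2 being members of the C/EBP family. Cebpb measured 114 CPM in GRf/f vehicle, 49.6 CPM in GRf/f with CORT, 65.9 CPM in GRmKO vehicle and 71.2 CPM in GRmKO with CORT, a log2 change of -1.20 in GRf/f and 0.11 in GRmKO. Cebpd had changes of -1.18 and -0.46 in Gas and of -1.84 and -1.11 in WAT. Cebpa, the C/EBP factor of mature fat cells, measured 1111, 946, 1015 and 955 CPM in WAT, a change of -0.23 in GRf/f and -0.09 in GRmKO. In WAT 0 of 12 rose and 2 fell in GRf/f, beside 5.49% and 8.07% of all genes, and 0 rose and 3 fell in GRmKO, beside 3.47% and 5.63%, with Srebf1, a driver of lipid synthesis genes, going from 219 to 52.2 CPM (-2.06) in GRf/f. The median of the list was 0.01 in Gas and -0.21 in WAT.

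Receptors and signalling genes that serve these hormones gave 1 rise and 1 fall among 14 tested in GRf/f muscle and 0 rises and 3 falls among 13 in GRf/f fat, with medians of -0.22 and 0.04. Over all genes 3.26% rose and 4.72% fell in that muscle comparison, and 5.49% and 8.07% in that of fat. The leptin receptor Lepr was low everywhere, from 2.86 to 4.75 CPM in Gas and from 3.11 to 4.14 CPM in WAT, with no change past the rule. Socs3, which leptin signalling induces, measured 15.3, 12.8, 33.9 and 64.9 CPM in Gas, and so was higher in GRmKO than in GRf/f by 1.12 on the log2 scale under vehicle and 2.30 under CORT, and these values were singled out after they were seen. Jak2, the kinase bound to Lepr, measured 57.4, 17.8, 14.2 and 29.6 CPM in Gas, a log2 change of -1.66 in GRf/f and of 1.04 in GRmKO. In WAT the signs were reversed, with Jak2 at 21.5, 41.7, 33.9 and 10.7 CPM and changes of 0.94 and -1.61. Tlr4, a sensor of bacterial endotoxin, rose by 1.19 in GRf/f muscle. In GRf/f fat the falls were those of Adrb3, the adrenergic receptor of fat cells (510 to 88.7 CPM, -2.52), Cdh13, which binds adiponectin (-1.22), and the adiponectin receptor Adipor2 (-1.18).

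In the alternative complement pathway list, which starts with Cfd, 0 rose and 2 fell of 7 tested in GRf/f muscle, beside 3.26% and 4.72% of all genes, Cfd itself and Cfp (properdin, 9.87 to 4.64 CPM, -1.01). In GRf/f fat 1 rose and 1 fell of 8, beside 5.49% and 8.07%, with C3ar1, the receptor for a fragment of C3, going from 18.5 to 64.5 CPM (1.78) while Cfd fell. Its substrate Cfb measured 106, 108, 109 and 96.2 CPM in WAT and C3 measured 840, 959, 993 and 942 CPM, so neither followed Cfd down. The medians were -0.01 in Gas and 0.14 in WAT. The pair of imprinted neighbours, Nnat and Blcap, had medians of 0.85 and -1.49.

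Of the retinol handling list, 7 genes were tested in Gas, where 2 rose and 0 fell in GRf/f, 1 of the 2 being Rbp4 itself, beside 3.26% and 4.72% of all genes. In WAT 6 were tested, of which 1 rose and 1 fell, beside 5.49% and 8.07%, and the medians were 0.50 in Gas and -0.10 in WAT. Aldh1a1, which turns retinal into retinoic acid, measured 57.3 CPM in GRf/f vehicle, 280 CPM in GRf/f with CORT, 31.6 CPM in GRmKO vehicle and 30.6 CPM in GRmKO with CORT in Gas, so it rose with CORT by 2.28 in GRf/f against -0.04 in GRmKO. In WAT it went from 197 to 629 CPM in GRf/f and from 269 to 604 CPM in GRmKO, rises of 1.68 and 1.17. Rbp7, a retinol binding protein of fat endothelium, fell in WAT, with log2 changes of -2.04 in GRf/f and -1.29 in GRmKO.

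The genes whose pattern lay nearest to that of Lep were sought by the Euclidean distance between log2 profiles over the 4 Gas and 4 WAT libraries, each centred within its tissue, among 8730 genes. They were the chemokine Cxcl13 (distance 1.71), the heat shock genes Hspa1b (1.76) and Hspa1a (1.77), haptoglobin Hp (1.91) and orosomucoid Orm1 (2.17). Hspa1a and Hspa1b are near-identical, so their counts could be split between them by the counting. The changes of Hp with CORT were 3.28 and 2.23 on the log2 scale in GRf/f and GRmKO muscle and 1.55 and 1.91 in fat, where Hp measured 2209, 6458, 1885 and 7081 CPM. Cxcl13 changed by 3.57 and 2.76 in muscle and by 1.53 and 0.60 in fat, at levels of at most 25.7 CPM. Of the other 7 genes described here Retn was the closest to Lep, in place 59, and Cfd the farthest, in place 8690 of 8729.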

How the data were processed

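Total RNA of 3 mice per group was pooled, and 12 libraries were sequenced in paired-end mode. According to the study's methods, the authors quantified reads with Salmon 1.2.1 against GENCODE protein-coding transcripts, imported them into R 3.5.0 with tximport as length-scaled TPM, converted transcript IDs to gene names and retained, of duplicated names, the entry with the largest count. Per the labels, the build was mm10. The deposited values are therefore estimated counts that the authors made before deposit, not whole numbers, each row holding 1 transcript name. They were divided by the library total and multiplied to CPM without rounding. Library totals of 19394572 to 20940660 allow a floor of 3 counts at 0.143 to 0.155 CPM.

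Groups followed the labels. CORT was compared with vehicle within genotype, and GRmKO with GRf/f within treatment, in Gas and in WAT, as log2((CPM + 0.5)/(CPM + 0.5)) over genes above 0 in all 4 libraries of the tissue. A 2-fold difference was called. With 1 library per group no test was made. Intervals (95%) are Clopper-Pearson for ratios, Wilson for levels and delta-method for ratios of ratios. Neither the intervals nor the floor hold error beyond that of counting. The alternatives were TMM (edgeR 4.0.16, R 4.3.3) and median-of-ratios scaling, 0.1 and 1 CPM added, no filter, a mean of 50 counts, 1.5-fold and 4-fold rules, and NOISeq without replicates as the study set it, rebuilt in Python 3.11.15 with numpy 2.4.6. The scripts were tested on simulated data. Genes named are the 8, the 5 nearest to Lep by profile among genes reaching 5 CPM in both tissues, and, from each of 7 gene lists, up to 3 others with the largest called CORT change in GRf/f per tissue, of which 1 is not reported here. Genes of the lists named outside this rule (Lepr, Socs3, Blcap, Cebpa, Cfb, C3, Cidec, Lipe and Fabp5), adipocyte markers, markers of other cell types and Alb were added after their values were seen. The 8 genes, the lists and the markers were chosen with earlier results of these data known.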

Additional observations from a re-analysis of the deposited data

Results flagged for a closer look

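Nnat is listed here because its change with CORT in GRf/f mice passed the 2-fold rule in opposite directions in the 2 tissues. It rose by 2.12 on the log2 scale in Gas (2.77 to 13.8 CPM) and fell by 2.08 in WAT (1855 to 440 CPM), a gap of 4.20 between the tissues. The difference was not tested, since each group is 1 pooled library.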

How the results depend on the processing

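No paired analysis was possible because each group holds 1 library. No library could be left out for the same reason. Of 76 recomputed counts of called genes among the 8, 64 stayed within 1.5 times the value reported and 12 moved. None of 256 recomputed log2 changes turned its sign, and 56 moved by more than counting error. With a 4-fold rule 3 of the 8 passed in GRf/f muscle with CORT, 1 in GRmKO muscle with CORT, 1 in GRmKO fat with CORT, and 0 between genotypes in vehicle or CORT muscle. With a 1.5-fold rule 5 passed in GRf/f fat with CORT, 4 between genotypes in vehicle muscle, 3 in CORT muscle, 1 in vehicle fat and 2 in CORT fat. Between genotypes in vehicle muscle 0 passed with 1 CPM added, where Nnat went from 1.08 to 0.98, and 0 by NOISeq. The cause was not tested. NOISeq left out Rbp4 in GRf/f muscle and Plin1 in GRmKO muscle with CORT. TMM and median-of-ratios scaling moved the median of all genes by 0.14 and 0.13 in GRmKO muscle with CORT and by 0.11 and 0.12 in GRmKO fat with CORT, and called the same number of the 8. They also moved the split of all genes called. The share of calls that were higher went from 40.8% to 48.7% and 51.2% with TMM and median-of-ratios in GRf/f muscle with CORT, from 23.2% to 34.9% and 34.1% in GRmKO muscle with CORT, and from 38.2% to 51.2% and 51.6% in GRmKO fat with CORT. All genes called, over the alternatives, ranged from 135 to 3058 (1080 as reported) and from 101 to 2557 (885) for CORT in GRf/f and GRmKO muscle, from 112 to 3255 (1052) and from 182 to 3757 (1315) between genotypes in vehicle and CORT muscle, from 325 to 4636 (1928) and from 125 to 3570 (1294) for CORT in GRf/f and GRmKO fat, and from 35 to 1375 (316) and from 23 to 1510 (372) between genotypes in vehicle and CORT fat, lowest at 4-fold and highest at 1.5-fold. NOISeq called between 95 and 1045 of all genes. The genes nearest to Lep depended on the measure, since the 5 with the highest Pearson correlation (Ubfd1, Zfp131, Gnai1, G3bp2 and Spock2) shared 0 with the 5 by distance. Depth allows no comparison of Lep, Adipoq, Retn, Plin1 and Nnat in liver, where they had at most 5.58 expected counts.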
